A study of Mus musculus with 12 samples.

Results

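The NOTCH pathway genes described here are 10 genes taken by symbol from the gene count table of a BRG1 dose series, out of 24421 genes in the table. They are the receptor genes Notch1, Notch2, Notch3 and Notch4, the ligand genes Dll1, Jag1 and Jag2, the nuclear factor gene Rbpj, and the target genes Hes1 and Hey1. The rule uses the symbols alone and no measured value, but the members were chosen with earlier results of these data known. The mouse embryonic stem (mES) cells were of the B6 strain (C57BL/6J), were cultured in 2i and LIF, and in every group carried the FKBP12-F36V degron tag knocked into Brg1, so the 0 nM cells are tagged cells and not wild-type cells. BRG1, encoded by Smarca4, is the main ATPase of the mSWI/SNF chromatin remodeler in these cells, and dTAG13 is a small molecule that sends the tagged protein to the proteasome. RNA was sequenced after 24 h with 0, 0.3, 1, 3, 10 or 100 nM dTAG13, with 2 libraries at each of the 6 doses and 12 in all. The 0 nM libraries carry the label Control, and the study describes 0 nM as treatment with DMSO, the vehicle. The study describes its expression data as coming from independent experiments, while the labels number the libraries only as replicates. The p-values at a dose use the spread between the 2 libraries of a dose, estimated over all 6 doses together. Those of slopes over the doses also take in departures of the doses from a line.

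NOTCH proteins are receptors on the cell surface that are activated by Delta-like and Jagged ligands on a neighbouring cell. Ligand binding leads to cleavage by an ADAM protease and then by gamma-secretase, which frees the intracellular part of the receptor to enter the nucleus, bind RBPJ and a Mastermind coactivator, and switch on genes such as those of the HES and HEY repressors. In the absence of that fragment RBPJ recruits corepressors. In mES cells the pathway is known for promoting entry into neural fate rather than for self-renewal, and the 2i medium itself inhibits MEK and GSK3.

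Total counts ran from 4663484 to 6375582 read pairs per library, and the ribosomal RNA gene Rn45s took 10.5% to 19.4% of them. Smarca4, whose protein and not its transcript is the target of dTAG13, lay between 63.2 and 71.0 RPKM (read pairs for each kb of exon after TMM scaling of the library totals), so this check does not show the loss of BRG1. All 10 mES cell markers listed, among them Pou5f1, Nanog and Esrrb, were expressed, with a summed level of 2292 to 2323 RPKM at 0 nM and 2148 to 2187 RPKM at 100 nM. At 100 nM, 3 of these mES cell markers rose (Nanog, Klf4 and Tdgf1) and 4 fell (Pou5f1, Esrrb, Tfcp2l1 and Dppa5a). Markers of neural progenitors summed to at most 12.7 RPKM at 0 nM and 17.3 to 17.9 RPKM at 100 nM. Of those 7 markers, 3 (Nes, Pax6 and Zic1) rose at 100 nM, Sox1 and Olig2 did not pass the test, and Zic1 had no count at 0 nM. Pax6, at 0.0520 RPKM in 0 nM cells, and Zic1 averaged under 1 RPKM and were tested in a second fit of all genes with a count. The list included Hes5, which is also a NOTCH target and stood at 0.0636 RPKM in 0 nM cells and at 0.0647 RPKM under 100 nM. At 100 nM, 10.0% of all genes averaging 1 RPKM or more were called higher and 13.3% lower. Of genes under that level, 3.70% were called higher and 0.702% lower. Among markers of the other lineages, 3 of 7 for trophectoderm rose and 1 fell at 100 nM, 1 of 7 for primitive endoderm and 1 of 6 for mesoderm rose, and none of 7 fibroblast markers passed the test. The part of such cells in the results was not tested.

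The members lie on 6 chromosomes (mm10), and none of their exon bases is shared with another gene in the table. Notch1 and Jag1 are both on chromosome 2, from 26457902 to 26503822 and from 137081451 to 137116520, each on the minus strand. Jag2 is on chromosome 12 from 112908590 to 112929495, also on the minus strand. RefSeq promoter windows (GRCm38.p6, the build of mm10) were matched for 8 of the 10 members, all but Hes1 and Hey1. The 250 bases before the start of Notch1 and Jag1, whose transcripts fell, and of Jag2, whose transcript rose, are given from 5′ to 3′ on the gene's strand, at chr2:26503823-26504072, chr2:137116521-137116770 and chr12:112929496-112929745. Capitals mark letters that HES and HEY repressors are known to bind, searched on both strands as the E box CACGTG, the related class C site CACGCG and the N box CACNAG.
Notch1: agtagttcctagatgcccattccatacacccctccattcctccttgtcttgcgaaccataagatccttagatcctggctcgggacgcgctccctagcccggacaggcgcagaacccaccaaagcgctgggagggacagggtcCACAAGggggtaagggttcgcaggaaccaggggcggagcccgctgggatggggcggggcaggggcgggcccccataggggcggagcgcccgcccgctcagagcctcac
Jag1: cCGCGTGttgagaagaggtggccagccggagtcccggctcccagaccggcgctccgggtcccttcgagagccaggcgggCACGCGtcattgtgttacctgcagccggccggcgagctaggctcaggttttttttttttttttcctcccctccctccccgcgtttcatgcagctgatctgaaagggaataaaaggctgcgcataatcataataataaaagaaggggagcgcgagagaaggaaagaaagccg
Jag2: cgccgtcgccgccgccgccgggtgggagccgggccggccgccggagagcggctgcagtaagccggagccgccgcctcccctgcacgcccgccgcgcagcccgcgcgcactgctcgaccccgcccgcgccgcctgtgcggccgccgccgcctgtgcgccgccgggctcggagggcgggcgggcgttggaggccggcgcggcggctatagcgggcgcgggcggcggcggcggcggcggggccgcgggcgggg

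The window of Notch1 held CACNAG at 1 place, that of Jag1 held CACGCG at 2 places, and that of Jag2 held none of these letters. Among the other matched members, Notch2 held CACGCG and CACNAG, Notch3 held CACNAG at 2 places, and a window of Dll1 held CACGCG. Notch4 and Rbpj held none of them. Over 32536 windows of the same length, CACNAG was in 36.7%, CACGCG in 7.7% and CACGTG in 6.0%. The core letters of the RBPJ site, TGGGAA, were in 21.6% of all windows, and among the matched members they were in the windows of Rbpj itself and of no other member. G and C made up 66.0% of the Notch1 window, 57.2% of the Jag1 window and 87.2% of the Jag2 window. These matches describe the letters and no binding was measured here.

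In 0 nM cells, the transcripts of the nuclear factor and of Hes1 stood well above those of the receptors and ligands when counted per length. The mean level was 35.3 RPKM for Rbpj and 25.3 RPKM for Hes1. Next came the receptors Notch2 at 8.13 ± 0.423 RPKM (SD, n = 2) and Notch1 at 7.89 ± 0.301 RPKM (SD, n = 2), whose libraries overlapped. They were followed by Jag2 at 3.84 RPKM, Jag1 at 3.54 RPKM, Notch3 at 3.16 RPKM and Notch4 at 1.80 RPKM, and no 2 neighbours among these 4 had overlapping libraries. Hey1 at 0.418 RPKM and Dll1 at 0.146 RPKM were near the limit of detection. At 100 nM the order had changed below Notch2, with Jag2 at 5.72 RPKM above Notch1 at 4.02 RPKM, and with Jag1 at 1.95 RPKM last of the expressed members. Notch4 and Jag1 overlapped at that dose. In these bulk libraries, fewer cells of a type and less RNA per cell cannot be told apart.

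**Figure D1:**
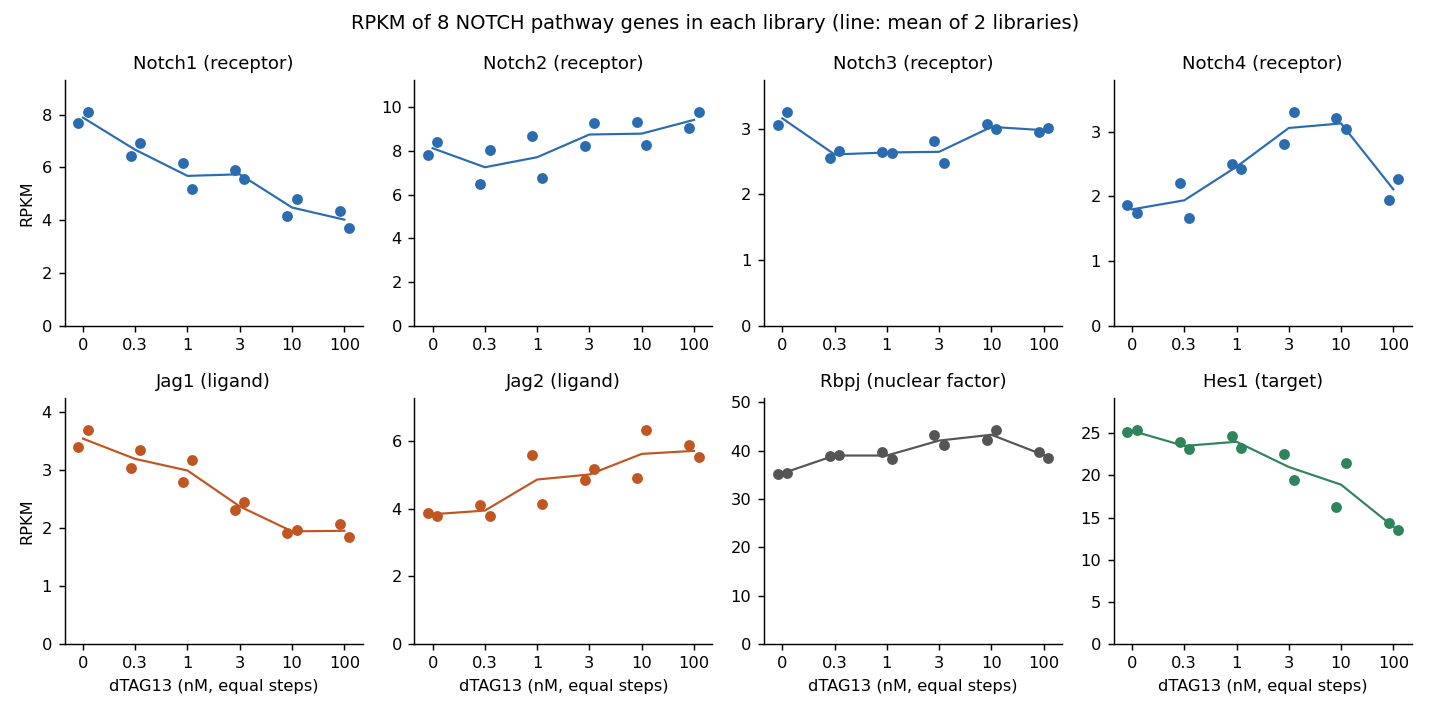
RPKM (y axis, from 0, with a scale of its own in each panel) of the 8 expressed members against dTAG13 dose in nM (x axis, equal steps), with a point for each library and a line through the means of 2 libraries. At 100 nM Notch1, Jag1 and Hes1 stand at 51.0%, 55.2% and 54.8% of their 0 nM means, Jag2 is higher, and Notch4 is highest at 3 and 10 nM.

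The dose series asks how expression responds as BRG1 is lowered step by step. Of the members, the receptor Notch1, the ligand Jag1 and the target Hes1 fell, the ligand Jag2 rose, and Notch4 and Rbpj rose at intermediate doses. A member is called here when its p from the quasi-likelihood test of edgeR, adjusted by the method of Benjamini and Hochberg over the 11378 genes that averaged 1 RPKM or more, is under 0.05. SE is the standard error of a log2 fold change in that fit. The 8 members that reached this level, all but Dll1 and Hey1, were tested among those genes. At 0.3 nM no member was called by edgeR's quasi-likelihood test, its likelihood ratio test or DESeq2, and 2 members had an unadjusted p under 0.05, while 0% of the genes tested were called higher and 0.0703% lower. At 1 nM, Notch1 alone was called, on the lower side, beside 1.65% of genes lower and 0.729% higher. At 3 nM, Notch1 and Jag1 were lower and Notch4 and Rbpj higher, beside 5.52% of genes lower and 4.01% higher. The libraries of 0.3 and 3 nM carry label numbers from a separate numbering that holds no 0 nM library, so in these comparisons the dose and that numbering cannot be told apart.

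At 10 nM, 3 of the 10 members were lower (Notch1, Jag1 and Hes1), where 10.2% of the genes tested were, and 3 were higher (Notch4, Jag2 and Rbpj), where 7.50% were. The 100 nM dose had the same 3 members lower beside 13.3% of genes, and Jag2 alone higher beside 10.0% of genes. All 3 of the lower members were also past a 1.5-fold change, as were 6.83% of genes on the lower side, whereas Jag2 changed 1.49-fold and was not among the 4.36% of genes higher by that rule. The median log2 fold change at 100 nM was 0.03 over the 8 members tested among these genes and 0.18 over all 10, which include Dll1 and Hey1 with few counts, beside -0.00 over all genes tested. The comparisons with 0 nM share the 2 control libraries, so calls at several doses are not independent of each other. Which genes set the scaling matters for the whole table: at 100 nM 1143 genes were higher and 1516 lower, but 802 higher and 2174 lower with TMM factors from all genes with a count, an alternative chosen after seeing the data, under which the median of all genes shifted by -0.08, and 1119 higher and 1028 lower without normalization factors.

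**Figure D2:**
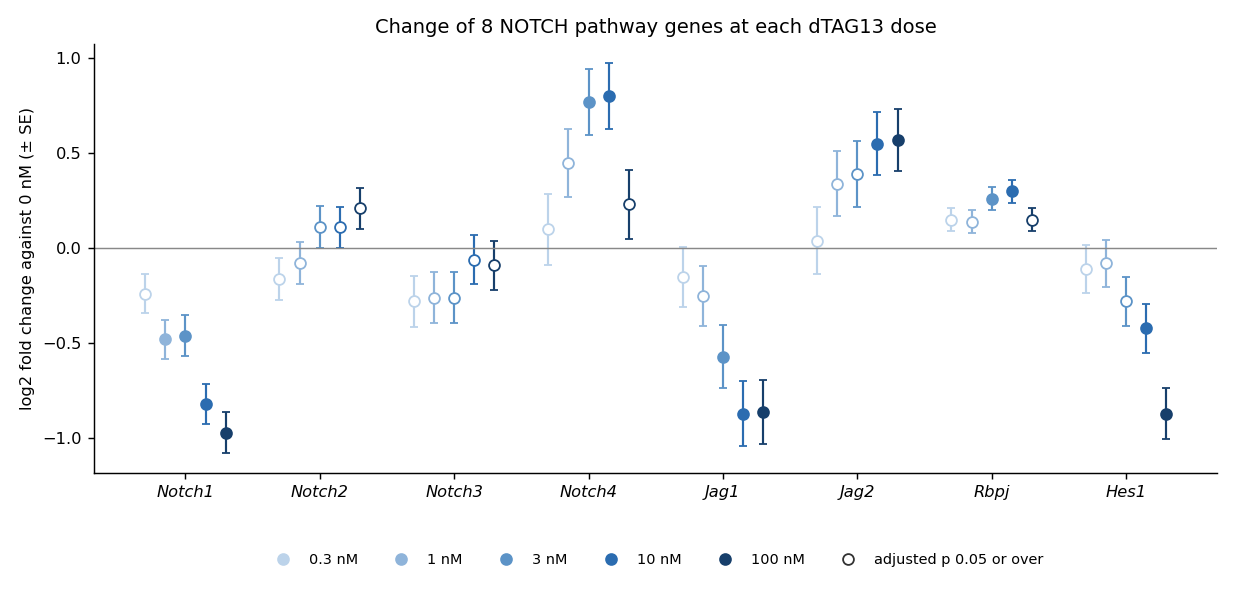
Log2 fold change against 0 nM (y axis, bars ± standard error from the fit) of the 8 expressed members at 5 doses (darker for higher doses). Filled points have an adjusted p under 0.05: Notch1 is filled from 1 nM on and reaches -0.97 at 100 nM, and no point of Notch2 or Notch3 is filled.

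Notch1 was the receptor transcript that fell, and its decrease was already called at 1 nM. It encodes a receptor that is widely used in development, and its libraries stood at 7.68 and 8.11 RPKM at 0 nM. The values were 6.42 and 6.92 RPKM at 0.3 nM, 6.16 and 5.20 RPKM at 1 nM, 5.91 and 5.57 RPKM at 3 nM, 4.15 and 4.80 RPKM at 10 nM, then 4.34 and 3.70 RPKM at 100 nM. All 10 treated libraries lay below both 0 nM libraries. The raw counts behind these values were 426 and 475 at 0 nM against 250 and 216 at 100 nM. Its log2 fold change was -0.48 (SE 0.104, adjusted p = 0.0117) at 1 nM, -0.46 (SE 0.106, adjusted p = 0.00508) at 3 nM, -0.82 (SE 0.107, adjusted p = 3.3e-06) at 10 nM and -0.97 (SE 0.108, adjusted p = 1.6e-07) at 100 nM. The calls at 10 and 100 nM held under all 22 alternatives in the test, scaling, filter and libraries, and both were past 1.5-fold. The 1 nM call was lost in 4 of 22, with an adjusted p of 0.0528 without normalization factors, 0.0629 without 0 nM replicate 1, 0.135 without 0 nM replicate 2 and 0.293 without 1 nM replicate 2. The 3 nM value became 0.0638 with 0 nM replicate 2 left out and 0.0565 with 3 nM replicate 2 left out.

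Notch2, the most abundant receptor transcript together with Notch1 in 0 nM cells, had a small rising slope over the doses. The levels were 7.83 and 8.43 RPKM at 0 nM, 6.50 and 8.03 at 0.3 nM, 8.68 and 6.76 at 1 nM, 8.25 and 9.27 at 3 nM, 9.33 and 8.27 at 10 nM, then 9.07 and 9.80 RPKM at 100 nM. Only the 100 nM libraries both lay above both controls, and at 0.3, 1, 3 and 10 nM they overlapped them. The log2 fold change at 100 nM was 0.21 (SE 0.108, adjusted p = 0.163) and did not pass the test. It passed in 1 of 22 alternatives, the pairwise fit (adjusted p = 0.0467). A slope over the 6 doses taken as equal steps, which uses all 12 libraries, was 0.06 log2 per step for Notch2 (adjusted p = 0.0277). The call of that slope was lost in 6 of 23 alternatives, with adjusted p = 0.111 without the RPKM filter, 0.101 with TMM factors from all genes with a count, 0.104 in the 8 libraries of 0, 1, 10 and 100 nM alone, 0.0647 without 0.3 nM replicate 1, 0.0554 without 10 nM replicate 1 and 0.0988 without 100 nM replicate 2.

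Notch3 did not pass at any dose. It stood at 3.06 and 3.26 RPKM at 0 nM, 2.56 and 2.66 at 0.3 nM, 2.65 and 2.63 at 1 nM, 2.82 and 2.48 at 3 nM, 3.07 and 3.00 at 10 nM, then 2.95 and 3.01 RPKM at 100 nM. The libraries of 0.3, 1 and 3 nM lay below both controls, with log2 fold changes of -0.28, -0.26 and -0.26, those of 10 nM overlapped them, and those of 100 nM lay just below. At 100 nM the log2 fold change was -0.09 (SE 0.130, adjusted p = 0.692).

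Notch4 had a different course, highest at intermediate doses. This receptor gene is best known from vascular endothelium, and with 63 to 130 counts per library it was the least abundant receptor at 0 nM. Its levels were 1.87 and 1.74 RPKM at 0 nM, 2.21 and 1.67 at 0.3 nM, 2.50 and 2.42 at 1 nM, 2.81 and 3.31 at 3 nM, 3.22 and 3.04 at 10 nM, then 1.95 and 2.27 RPKM at 100 nM. The 1, 3, 10 and 100 nM libraries all lay above both controls, and the 100 nM libraries lay below those of 1, 3 and 10 nM. Notch4 rose at 3 nM by 0.77 on the log2 scale (SE 0.175, adjusted p = 0.00509), and at 10 nM by 0.80 (SE 0.172, adjusted p = 0.00156). At 100 nM it was 0.23 (SE 0.182, adjusted p = 0.411).

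The steps between treated doses were tested for themselves. Notch4 was the member called between 3 and 0.3 nM, with a log2 fold change of 0.66 (SE 0.175, adjusted p = 0.0235), beside 2.36% of genes called higher and 3.07% lower. From 10 to 100 nM its log2 fold change was -0.57 (SE 0.167, adjusted p = 0.0807), so the lower level of Notch4 at the highest dose did not pass the test. In that step no member was called by edgeR's quasi-likelihood test, 1 was by the likelihood ratio test and none was by DESeq2, and 3 had an unadjusted p under 0.05, beside 0.642% of genes called higher and 1.71% lower. The 10 nM call of Notch4 held under all 22 alternatives and was past 1.5-fold. Its 3 nM call had adjusted p = 0.0612 without 0 nM replicate 2 and 0.0878 without 3 nM replicate 2, and the step from 0.3 to 3 nM had 0.252 without 0.3 nM replicate 2, 0.224 without 3 nM replicate 2, 0.114 with DESeq2 and 0.0592 in a pairwise fit.

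As a set, the receptor transcripts shifted from a balance of Notch1 and Notch2 towards Notch2. Per length, Notch1 took 37.6% of the summed RPKM of the 4 receptors at 0 nM and 21.7% at 100 nM, while Notch2 took 38.7% and 50.9%. In the single libraries the ratio of Notch1 to Notch2 was 0.981 and 0.961 at 0 nM, 0.988 and 0.862 at 0.3 nM, 0.710 and 0.769 at 1 nM, 0.716 and 0.601 at 3 nM, 0.445 and 0.581 at 10 nM, then 0.479 and 0.378 at 100 nM. From 1 nM on, every library was below all those of 0 and 0.3 nM. The summed receptor level was 20.4 and 21.5 RPKM at 0 nM and 18.3 and 18.8 RPKM at 100 nM. These ratios are descriptions without a test of their own.

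Among the ligands, Jag1 and Jag2 went in opposite directions. Both encode Jagged proteins, which can activate the same receptors. Jag1 stood at 3.40 and 3.69 RPKM at 0 nM, 3.04 and 3.34 at 0.3 nM, 2.80 and 3.17 at 1 nM, 2.31 and 2.44 at 3 nM, 1.91 and 1.97 at 10 nM, then 2.07 and 1.84 RPKM at 100 nM. Every treated library lay below both controls, and the 10 and 100 nM libraries overlapped. The counts of Jag1 were 109 and 125 at 0 nM against 69 and 62 at 100 nM. The log2 fold change was -0.57 (SE 0.167, adjusted p = 0.0275) at 3 nM, -0.87 (SE 0.169, adjusted p = 0.000532) at 10 nM and -0.86 (SE 0.168, adjusted p = 0.000390) at 100 nM.

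Jag1 was also the member called in the step from 1 to 10 nM, which had 3.70% of genes called lower and 2.57% higher. There its log2 fold change was -0.62 (SE 0.174, adjusted p = 0.0290), and from 10 to 100 nM it was 0.01 (SE 0.186, adjusted p = 0.990). The calls of Jag1 at 10 and 100 nM held under all 22 alternatives and were past 1.5-fold. At 3 nM the call was lost in 7 of 21, where its adjusted p reached 0.180 without 0 nM replicate 2 and was 0.0710 without 0 nM replicate 1, 0.149 without 3 nM replicate 1 and 0.102 without 3 nM replicate 2. The call in the step from 1 to 10 nM was lost in 7 of 22, where it had adjusted p = 0.169 with DESeq2, 0.0623 without 1 nM replicate 1, 0.241 without 1 nM replicate 2, 0.110 without 10 nM replicate 1 and 0.123 without 10 nM replicate 2.

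Jag2 rose at the 2 highest doses. Its libraries stood at 3.88 and 3.80 RPKM at 0 nM, 4.11 and 3.79 at 0.3 nM, 5.60 and 4.14 at 1 nM, 4.87 and 5.17 at 3 nM, 4.92 and 6.34 at 10 nM, then 5.89 and 5.54 RPKM at 100 nM. From 1 nM on, all libraries lay above both controls, with wide spreads at 1 and 10 nM. The counts of Jag2 were 92 and 95 at 0 nM against 145 and 138 at 100 nM. The log2 fold change was 0.55 (SE 0.166, adjusted p = 0.0213) at 10 nM and 0.57 (SE 0.165, adjusted p = 0.0122) at 100 nM. At 100 nM the adjusted p of Jag2 was 0.0549 without 0 nM replicate 1, 0.0771 without 0 nM replicate 2, 0.0895 without 100 nM replicate 1 and 0.0537 with DESeq2. At 10 nM it was 0.248 without 10 nM replicate 2, with a log2 fold change of 0.37, 0.0845 and 0.114 without 0 nM replicates 1 and 2, and 0.0751 with DESeq2.

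The ratio of Jag1 to Jag2 per length was 0.874 and 0.971 without dTAG13, 0.738 and 0.881 at 0.3 nM, 0.499 and 0.767 at 1 nM, 0.474 and 0.471 at 3 nM, 0.387 and 0.310 at 10 nM, then 0.351 and 0.332 at 100 nM. Near equal amounts of the Jagged transcripts in 0 nM cells thus became a mean ratio of 0.341 at 100 nM. Dll1, which encodes a Delta-like ligand, was close to absent, with 0 to 9 counts per library. Its 0 nM libraries held 3 and 3 counts and its 100 nM libraries 9 and 4, a ratio of 2.20 with a 95% exact interval for counting error of 0.778 to 7.04. No difference in Dll1 was detected at this depth.

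**Figure D3:**
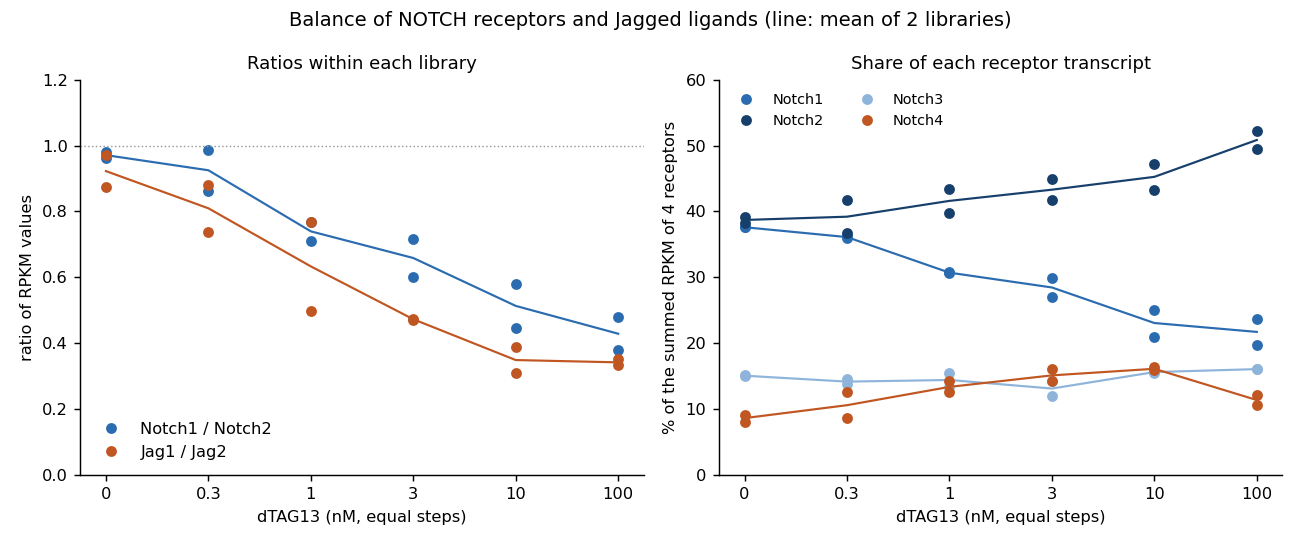
Left, the ratio of Notch1 to Notch2 and of Jag1 to Jag2 RPKM (y axis) in each library against dTAG13 dose in nM (x axis, equal steps), and right, each receptor's percent of the summed receptor RPKM. Lines join means of 2 libraries: the ratios start at 0.971 and 0.923 at 0 nM and end at 0.428 and 0.341 at 100 nM, and Notch2 ends at 50.9% of the receptor sum.

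Rbpj, which encodes the DNA-binding factor shared by all NOTCH receptors, was the most abundant member and rose slightly at 3 and 10 nM. It stood at 35.2 and 35.4 RPKM at 0 nM, 38.9 and 39.2 at 0.3 nM, 39.8 and 38.2 at 1 nM, 43.2 and 41.1 at 3 nM, 42.3 and 44.3 at 10 nM, then 39.8 and 38.5 RPKM at 100 nM. All 10 treated libraries lay above both controls, with the highest at 3 and 10 nM. The log2 fold change was 0.26 (SE 0.0609, adjusted p = 0.00688) at 3 nM and 0.30 (SE 0.0605, adjusted p = 0.000908) at 10 nM. At 100 nM it was 0.15 (SE 0.0607, adjusted p = 0.0746), and from 10 to 100 nM it was -0.14 (SE 0.0601, adjusted p = 0.310). The 100 nM change passed in 1 of 22 alternatives, that with upper quartile factors (adjusted p = 0.0494). The change at 10 nM was 1.23-fold and so under a 1.5-fold minimum, and its call held under the 22 other alternatives. The call at 3 nM had adjusted p = 0.0621 without 0 nM replicate 1, 0.0542 without 0 nM replicate 2 and 0.0517 without 3 nM replicate 1.

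Hes1 fell at the 2 highest doses. It encodes a basic helix-loop-helix repressor, is a direct target of NOTCH and RBPJ in many tissues, and is also controlled by other signals in mES cells. Its libraries stood at 25.2 and 25.4 RPKM at 0 nM, 24.0 and 23.1 at 0.3 nM, 24.7 and 23.2 at 1 nM, 22.5 and 19.4 at 3 nM, 16.3 and 21.5 at 10 nM, then 14.3 and 13.5 RPKM at 100 nM. All treated libraries lay below both controls, and the 100 nM libraries lay below every other. The counts were 214 and 228 at 0 nM against 126 and 120 at 100 nM. The log2 fold change of Hes1 was -0.28 (SE 0.130, adjusted p = 0.208) at 3 nM, -0.42 (SE 0.129, adjusted p = 0.0227) at 10 nM and -0.87 (SE 0.135, adjusted p = 2.2e-05) at 100 nM. The further step from 10 to 100 nM, -0.44 (SE 0.140, adjusted p = 0.119), did not pass the test.

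The 100 nM call of Hes1 held under all 22 alternatives and was past 1.5-fold. At 10 nM, where the libraries of Hes1 were far apart, its log2 fold change was -0.24 (adjusted p = 0.303) without 10 nM replicate 1, and its adjusted p was 0.0862 and 0.105 without 0 nM replicates 1 and 2, 0.109 with DESeq2 and 0.116 without normalization factors. Hey1, another helix-loop-helix repressor gene and NOTCH target, had 2 to 10 counts per library. With 7 and 4 counts at 0 nM against 7 and 10 at 100 nM, its ratio was 1.57. The 95% exact interval for counting error was 0.692 to 3.70, and no difference was detected. This interval and that of Dll1 pool the 2 libraries of a dose, so they cover counting error and not the spread between libraries. The reads also carry no molecular identifiers.

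Over the dose steps, 6 members had a slope that passed the test, against 13.4% of genes with a rising and 15.8% with a falling slope. Notch1 and Jag1 each fell by 0.19 log2 per step (adjusted p = 4.8e-08 and 8.6e-06), and Hes1 fell by 0.15 (adjusted p = 6.6e-05). Jag2 rose by 0.13 log2 per step (adjusted p = 0.00104), Notch2 by 0.06 and Rbpj by 0.04 (adjusted p = 0.0317). The slope of Notch4, 0.10 (adjusted p = 0.0736), did not pass, and neither did those of Notch3, Dll1 and Hey1. The slope of Rbpj lost its call in 7 of 23 alternatives, with adjusted p up to 0.277 without the RPKM filter, and among them those without 0 nM replicate 1 (adjusted p = 0.126), without 0 nM replicate 2 (0.127) and without 10 nM replicates 1 (0.0610) or 2 (0.0572). With a term for the separate numbering of the 0.3 and 3 nM libraries the same count of 6 slopes passed, that of Notch1 being -0.18 (adjusted p = 1.2e-07).

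The rest of the pathway was read from 10 lists of genes grouped by role, 73 genes in all, of which 72 were in the table and 49 were expressed enough to be tested with the members. At 100 nM, 7 of the 49 were higher and 10 lower, and 32 were not called, beside the 10.0% and 13.3% of all genes tested. Their median log2 fold change was 0.03. Among the genes that act on ligand and receptor, none of 4 for receptor glycosylation, 2 of 8 for receptor cleavage and none of 2 for ligand endocytosis were called. Adam17, which encodes a protease able to cut NOTCH receptors at the cell surface, rose by 0.68 on the log2 scale (adjusted p = 3.4e-05). Furin, which encodes the convertase that matures the receptors, was lower, with a log2 fold change of -0.51 (adjusted p = 0.0168). The gamma-secretase genes Psen2, Ncstn, Aph1a and Psenen did not pass, with log2 fold changes from -0.18 to 0.14.

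Of 4 other direct targets tested, 1 was lower and 1 higher. Dtx1, which encodes a Deltex ubiquitin ligase and is a NOTCH target, had the largest decrease among the 49 tested list genes, with a log2 fold change of -1.58 (SE 0.318, adjusted p = 0.000495). Myc, which is a NOTCH target in T cells and is under many other controls, rose by 0.93 on the log2 scale (adjusted p = 1.7e-09). Nrarp and Ccnd1 did not pass, at 0.38 and 0.17. Of the 7 other HES and HEY genes, only Hes6 was expressed enough for the main test, and it stood at 0.12 (adjusted p = 0.751). Heyl, tested among all genes with a count, was not called at 100 nM (adjusted p = 0.0914), with 2 and 1 counts at 0 nM against 9 and 8 at 100 nM. Its slope over the doses passed at 0.57 log2 per step (adjusted p = 0.0153), and Heyl is named after its values were seen. Slopes also passed for Maml2 (-0.14, adjusted p = 0.0121), Poglut1 (0.04, adjusted p = 0.0435) and Adam10 (0.06, adjusted p = 0.0486), list genes likewise not called at 100 nM. Maml2, Poglut1 and Adam10 were tested among the 11378 genes, of which 13.4% had a rising and 15.8% a falling slope. Beside Heyl stands the fit without the RPKM filter, whose TMM factors differ. There 2156 of 23204 genes had a rising and 2479 a falling slope.

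Genes of the nuclear complexes that RBPJ recruits were called in both directions. Of 7 coactivator genes tested, 2 rose (Maml1 by 0.32 and Kat2a by 0.25) and 2 were lower (Kat2b at -0.38 and the acetyltransferase gene Crebbp). Of 14 corepressor genes, 3 rose (Sap30 by 0.46, Ncor1 by 0.28 and Tle4 by 0.23) and 4 were lower (among them Tle3 at -1.17, Hdac2 at -0.42 and Ctbp2 at -0.24). Tle3 encodes a Groucho-type corepressor that also works with HES proteins, and it had the smallest p of all genes in the lists (adjusted p = 1.1e-10). Among 7 receptor turnover genes, Numbl, a relative of the NOTCH antagonist Numb, was lower at -0.54 (adjusted p = 0.0130), as was the ubiquitin ligase gene Nedd4, and Numb itself was not called, at 0.19. The 23 list genes under the level for the main test had no call, where 3.70% of such genes were called higher and 0.702% lower. Without 0 nM replicate 2 or without 100 nM replicate 2 the called list genes were 8 in place of 17, and without 100 nM replicate 1 they were 11.

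**Figure D4:**
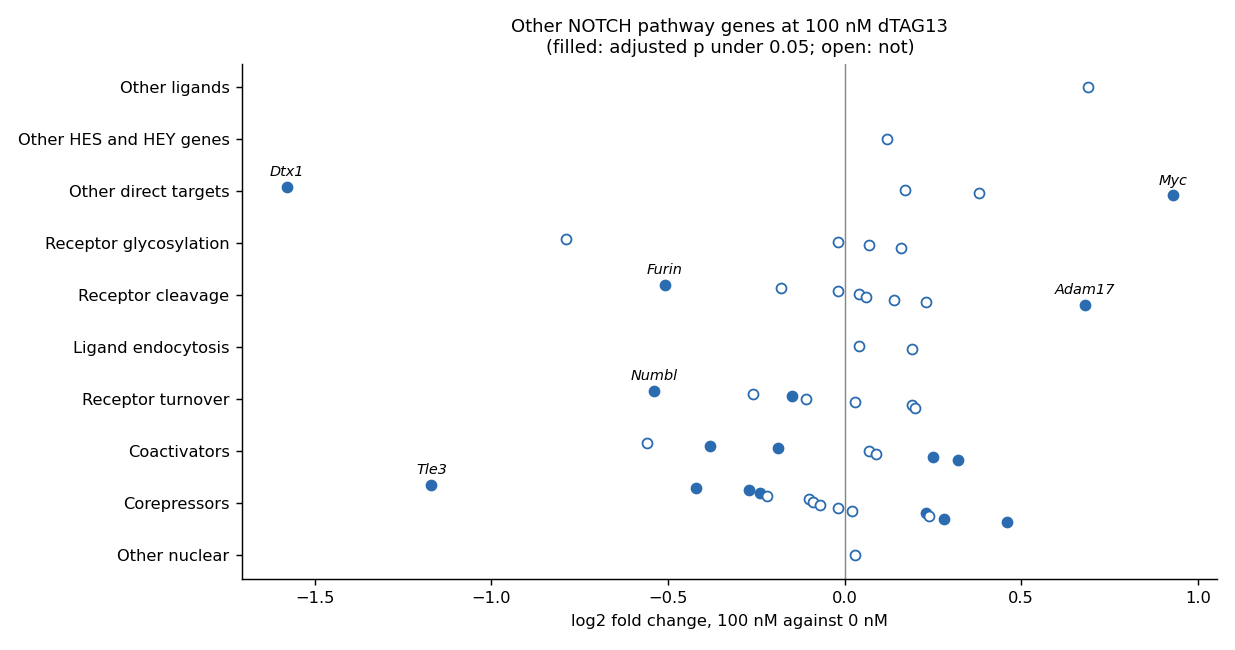
Log2 fold change at 100 nM against 0 nM (x axis) of the 49 tested pathway genes that are not members, 1 point a gene, by role (y axis). Filled points have an adjusted p under 0.05 (7 higher, 10 lower), and the called genes past 0.5 in size, Dtx1, Tle3, Numbl, Furin, Adam17 and Myc, carry their names.

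Other genes followed the course of the members over the 12 libraries. For each member called at 100 nM, the 3 genes with the highest Pearson correlation of log2(RPKM + 0.1) were taken, as a description with no test, over libraries that share doses and scaling. Notch1 was most like Epn2 (r = 0.968), which encodes an endocytic adaptor of the epsin family, the imprinted gene Mest (r = 0.967) and Ccdc8 (r = 0.966). Jag1 was most like the cytokine gene Il34 (r = 0.979), Ap2m1 (r = 0.977), which encodes a subunit of the AP2 clathrin adaptor, and the apoptosis gene Bid (r = 0.976). Hes1 was most like Ei24 (r = 0.984), Dlgap3 (r = 0.974) and the small heat shock protein gene Hspb8 (r = 0.974). Jag2, the member that rose, was most like Prss36 (r = 0.953), St5 (r = 0.938) and Sbno1 (r = 0.931).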

How the data were processed

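RNA-seq of 12 mES cell libraries at 6 dTAG13 doses was used. The authors deposited raw counts of read pairs per gene symbol. They trimmed paired-end 75-base reads with Trim Galore, aligned them to mm10 with HISAT2 and counted exons with featureCounts 2.0.1, with both ends required to align, multi-mapped pairs not counted and strand not used, so antisense reads fall on a gene. The total was 4663484 to 6375582 counts per library.

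R 4.3.3 was used with edgeR 4.0.16. RPKM was computed with TMM factors from the tested genes. The 11378 genes averaging 1 RPKM or more were fitted over the 6 conditions together and tested by the quasi-likelihood test of edgeR, and a p under 0.05 after Benjamini-Hochberg adjustment was a call. Dll1, Hey1 and list genes under that level were tested in a second fit of 23204 genes with a count. The study's likelihood ratio test was an alternative, as were DESeq2 1.42.0, other size factors, no filter, other sets of libraries, a replicate block, a 1.5-fold minimum and each library left out. The steps were tested on simulated data. All members are named, and of the lists those called at 100 nM with up to 8 per direction. Some genes of the lists are not reported singly here. The members and lists were chosen with earlier results of these data known. Promoter sequences are from RefSeq (GRCm38.p6). Replicate numbers were checked for shared deviations by the correlation of deviations from condition means.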

Additional observations from a re-analysis of the deposited data

How the results depend on the processing

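No called fold change or slope of a member, and no fold change at 100 nM, changed direction. The calls of Notch1, Jag1 and Hes1 at 100 nM and of Notch1, Notch4, Jag1 and Rbpj at 10 nM held in all 22 alternatives other than the fold minimum, which the 10 nM change of Rbpj, 1.23-fold, did not reach, and 4 members were called at 100 nM in the replicate block fit as without it, with Notch1 at adjusted p = 4.2e-07. The replicate numbers showed no strong shared deviation, as over 15 pairs of conditions the correlation of deviations ran from -0.119 to 0.0977. Such a correlation cannot show whether the libraries were prepared as pairs. The replicate block changed no count of calls among the members or lists. Counts of calls moved in several settings, by 1.5 times or less where a move is named as smaller. With a 1.5-fold minimum, the members called were 0 at 1 nM, 1 at 3 nM and 3 at 10 nM, and the list genes 4 at 100 nM. Without normalization factors they were 0 at 1 nM and 0 in the step from 1 to 10 nM, with smaller moves to 3 at 3 nM, 5 at 10 nM, 7 slopes and 13 list genes. With DESeq2 and with pairwise fits they were 0 in the steps from 0.3 to 3 nM and from 1 to 10 nM. Smaller moves with DESeq2 were to 3 members at 3 nM, 4 at 10 nM and 3 at 100 nM and to 13 list genes. Without the RPKM filter, and with TMM factors from all genes with a count (chosen after seeing the data), they were 2 in the step from 1 to 10 nM and 1 in the step from 10 to 100 nM, and with the likelihood ratio test 1 in the latter. Upper quartile factors gave 5 members at 100 nM, with Rbpj added, and the pairwise fit also gave 5, with Notch2 added. Slopes passed for 4 members without the RPKM filter and with TMM factors from all genes with a count. The cause of these differences was not tested. Leaving out each library in turn gave 0 to 1 members at 1 nM, 0 to 4 at 3 nM, 4 to 6 at 10 nM, 3 to 4 at 100 nM, 0 to 1 in each step between treated doses, 4 to 7 slopes and 8 to 17 list genes. The balance of calls over all genes turned in some settings: 853 were higher and 1165 lower at 10 nM, against 903 and 729 without normalization factors, and 456 and 628 at 3 nM, against 413 and 344 without them, 376 and 842 without the RPKM filter and 357 and 782 with TMM factors from all genes with a count. Rising slopes were 1527 and falling ones 1802, against 1801 and 1279 without normalization factors. With 2 libraries a dose and few counts, no difference in Dll1 or Hey1 was detected, and the intervals leave large changes possible.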
